A study of Gallus gallus with 26 samples.

Results

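Oxidative phosphorylation subunit genes were described in RNA from chicken (Gallus gallus) ovary, over 5 late-stage ovarian tumours, 4 early-stage ovarian tumours and 4 normal ovaries. Members were the genes whose symbols carry the usual names of the nuclear-encoded subunits of respiratory complexes I to V (NDUFA, NDUFB, NDUFC, NDUFS or NDUFV with a number, SDHA to SDHD, UQCR, COX4 to COX8, and ATP5). The rule took 74 of the 25079 genes in the messenger RNA table. It reads symbols and no measured value, but it was chosen with earlier results of these data known. By complex these were 34 genes of complex I, 4 of complex II, 8 of complex III, 10 of complex IV and 16 of complex V, and 2 further genes (ATP5S and ATP5SL) whose names begin like those of ATP synthase subunits but which are not counted as its subunits here. All 74 symbols were found in RefSeq, which was used for names alone. The labels give stage and tissue, and no treatment, strain or age. Each sample is called by its group and code number.

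Oxidative phosphorylation is the inner mitochondrial membrane pathway that passes electrons from NADH and succinate to oxygen and uses the resulting proton gradient to make ATP. Complex I oxidises NADH, complex II oxidises succinate and is also a step of the citric acid cycle, complex III passes electrons from ubiquinol to cytochrome c, complex IV reduces oxygen, and complex V is the ATP synthase. Its subunits are encoded partly in the nucleus and partly in mitochondrial DNA, and a balance between subunits is known to matter for assembly. The 13 subunits encoded in mitochondrial DNA had no symbol in the table and were not analysed here. Hens develop ovarian tumours spontaneously, which is why the species serves as a model of the disease.

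Total counts were 16273700 to 20118600 per library, and normalised CPM below are counts per 1000000 after TMM scaling of the library size. Levels of different genes were compared on the TPM scale, which divides by gene length. Whether each sample is a different hen is not stated in the labels, and p-values therefore reflect only the spread between samples. The libraries held markers of ovary and of other tissues: the summed smooth muscle markers (10 of 11 listed genes in the table, none at 0) were 256 to 1964 CPM in late tumours, 558 to 4706 CPM in early tumours and 873 to 11225 CPM in normal ovaries. Summed fibroblast markers (7 of 7 in the table, none at 0) were 463 to 3863, 992 to 7390 and 2764 to 10941 CPM in late, early and normal libraries. Summed granulosa and theca markers (11 of 11 in the table, with INHA at 0 in at least 1 library) were 998 to 1340, 641 to 1437 and 963 to 1222 CPM. Summed epithelial markers (9 of 10 in the table, with CLDN3 and CLDN4 at 0 in at least 1 library) were 1290 to 1587, 1167 to 1545 and 1047 to 1307 CPM. Single epithelial markers did not all follow this sum. Of the 7 tested, 3 had a higher and 4 a lower fitted level in late tumours than in normal ovaries (median log2 fold change -0.03). These are whole-tissue samples, in which fewer cells of a type and less RNA per cell cannot be told apart.

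As a set, the 74 genes took a similar part of the messenger RNA in the 3 groups. On the TPM scale they summed to 3.75%, 3.51%, 3.51%, 3.81% and 3.51% of the total in late tumours 3, 7, 23, 25 and 31. The same sum was 3.10%, 3.68%, 3.53% and 2.85% in early tumours 9, 11, 12 and 21, and 3.198%, 3.295%, 3.34% and 3.50% in normal ovaries 3, 4, 6 and 7. Late tumours lay just above the normal range (means 3.62 ± 0.149% and 3.33 ± 0.124%, SD, n = 5 and 4), and early tumours (3.29 ± 0.381%, n = 4) spanned it. The separation was not seen on the other scale: summed normalised CPM of the members were 9319 to 11603 in late tumours, 9081 to 10372 in early tumours and 9098 to 10613 in normal ovaries, so that all 3 groups overlapped.

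Levels differed far more between subunits than between groups. ATP5L, subunit g of the ATP synthase, had the highest mean level over all libraries, with 1470 ± 212 TPM in late tumours, 1353 ± 214 TPM in early tumours and 1294 ± 106 TPM in normal ovaries (SD, n = 5, 4 and 4). COX6C, a small subunit of complex IV, followed with 1336 ± 228, 1352 ± 206 and 1323 ± 58.7 TPM in late, early and normal samples. In normal ovaries its mean was above that of ATP5L. NDUFA1, a small accessory subunit in the membrane arm, was the highest of complex I at 1035 ± 95.5, 919 ± 157 and 900 ± 85.8 TPM. Toward the low end of complex I were the core subunits NDUFV1 (92.9 ± 18.7, 103 ± 16.2 and 131 ± 21.7 TPM in late, early and normal samples) and NDUFS1 (103 ± 41.1, 93.2 ± 31.3 and 87.9 ± 18.8 TPM) and the accessory subunit NDUFA9 (108 ± 19.4, 108 ± 7.03 and 98.3 ± 10.3 TPM). The core subunit NDUFV2 stood higher, at 394 ± 62.9, 335 ± 114 and 297 ± 62.6 TPM. Of complex II, by mean over all libraries, SDHD was the highest (476 ± 22.0, 434 ± 4.39 and 417 ± 33.2 TPM) and SDHC, the other membrane anchor, the lowest (78.9 ± 12.9, 82.3 ± 16.6 and 97.7 ± 22.8 TPM). In normal ovaries SDHA lay below SDHC, at 85.5 ± 9.83 TPM. The median member level over all libraries was 748 TPM in complex IV, 560 TPM in complex V, 363 TPM in complex III, 346 TPM in complex I and 128 TPM in complex II. Levels of single subunits overlapped between complexes, and the order of the medians describes the listed genes alone.

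**Figure D1:**
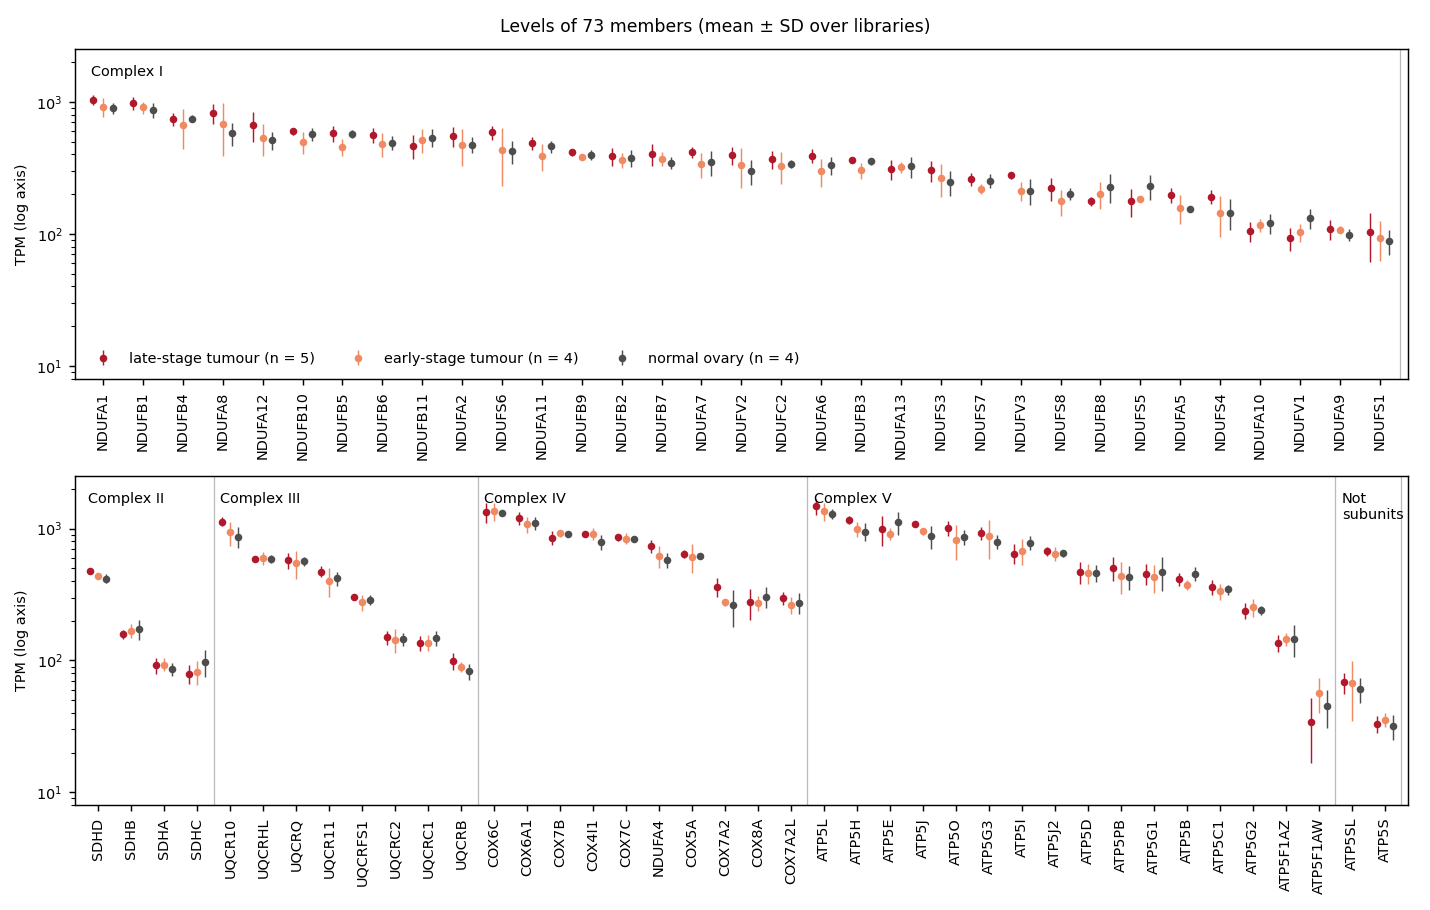
Level of each of 73 of the 74 genes in TPM (log axis; points are means, bars SD) in late-stage tumours (n = 5), early-stage tumours (n = 4) and normal ovaries (n = 4), ordered within each complex by mean level. ATP5L at 1470, 1353 and 1294 TPM in late, early and normal samples is the highest and ATP5S at 33.2, 35.6 and 31.8 TPM is the lowest by mean over all libraries, and the points of a gene lie close together beside the range between genes.

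The set varied little from library to library. The coefficient of variation of normalised CPM over the 13 libraries had a median of 16.6% for the members, and was under 20% for 55 of 74. Over all 16130 genes tested the median was 27.7%, and 4750 were under 20%. The median member level was 387 TPM, whereas the genes tested were all those kept by a filter with a minimum count of 10. No comparison with genes of similar level was made, here or for the fold changes below. UQCRFS1, the Rieske iron-sulphur protein of complex III, was the steadiest member at 6.56%, with 144 to 177 CPM in late tumours, 136 to 151 CPM in early tumours and 140 to 157 CPM in normal ovaries. SDHA, the flavoprotein of complex II, came next at 6.60%. ATP5F1AW, a copy of the ATP synthase alpha subunit gene, varied most, at 46.6%.

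In late tumours against normal ovaries, no member was called by the edgeR quasi-likelihood test with Benjamini-Hochberg adjustment over all genes (0 of 74 at adjusted p under 0.05, where 0.0% of all genes tested passed). As no gene at all was called, this count does not set the members apart. At an unadjusted p under 0.05, 6 members were higher and 3 lower in late tumours, 12.2% of the members against 17.9% of all genes. DESeq2 called 0 members and 0.783% of all genes. Limma voom with sample quality weights called 2 members, COX7A2 higher and NDUFV1 lower, which is 2.70% of the members against 5.55% of all genes. The 2 members whose groups did not overlap (NDUFS6 and ATP5G3, both higher in late tumours) compare with 2.61% of all genes. Apart from the last, where 2.70% of the members stand beside 2.61%, the members' shares were at or below those of all genes.

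Fold changes of the members in this comparison lay close to 0. Their median log2 fold change was 0.01, as was that of all genes tested, and 42 of 74 were positive. Of the members, 72 (97.3%) had a log2 fold change within 0.5 of zero, against 72.5% of all genes, and the extremes were -0.70 (NDUFV1) and 0.48 (COX7A2). The median was -0.07 without late tumour 25, in which the members stood highest on average, -0.01 without normal ovary 3, -0.01 without normal ovary 7 and 0.09 without normal ovary 4. The direction of this median therefore rested on single libraries. By complex the medians were 0.06 for complex I, -0.05 for complex II, 0.01 for complex III, 0.02 for complex IV and -0.05 for complex V.

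In early tumours against normal ovaries, edgeR again called 0 of 74 members and 0.0% of all genes. At an unadjusted p under 0.05, 1 member (NDUFB5, lower) was past the threshold, 1.35% of the members against 5.04% of all genes. DESeq2 called 0 members and 0.0364% of all genes, and limma voom called 0 members and 0.0% of all genes. Groups did not overlap for 2 members, NDUFB5 (lower) and SDHA (higher), and for 2.36% of all genes. The median log2 fold change was -0.02 over the members and 0.01 over all genes, and all 74 members lay within 0.5 of zero, against 84.3% of all genes. This median was 0.05 without normal ovary 4, 0.02 without early tumour 21 and 0.01 without normal ovary 7.

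In late against early tumours, edgeR called 0 of 74 members and 0.0% of all genes, and 2 members (NDUFA5 and NDUFV3, both higher in late tumours) had an unadjusted p under 0.05, 2.70% of the members against 6.34% of all genes. DESeq2 called 0 members and 0.041% of all genes. Limma voom called 0 members and 0.0% of all genes. Groups overlapped for each of the 74 members, while they did not overlap for 1.59% of all genes. The median log2 fold change was 0.06 over the members and 0.00 over all genes, and it was -0.02 without late tumour 25. Of the members, 73 lay within 0.5 of zero, against 82.2% of all genes, the exception being ATP5F1AW at -0.82 ± 0.45 (SE). That gene had 7.75 CPM in late tumour 31 and 32.0 to 70.1 CPM in the other late tumours. The comparisons share samples (late against normal and early against normal share the normal ovaries), so their values are not independent of one another.

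**Figure D2:**
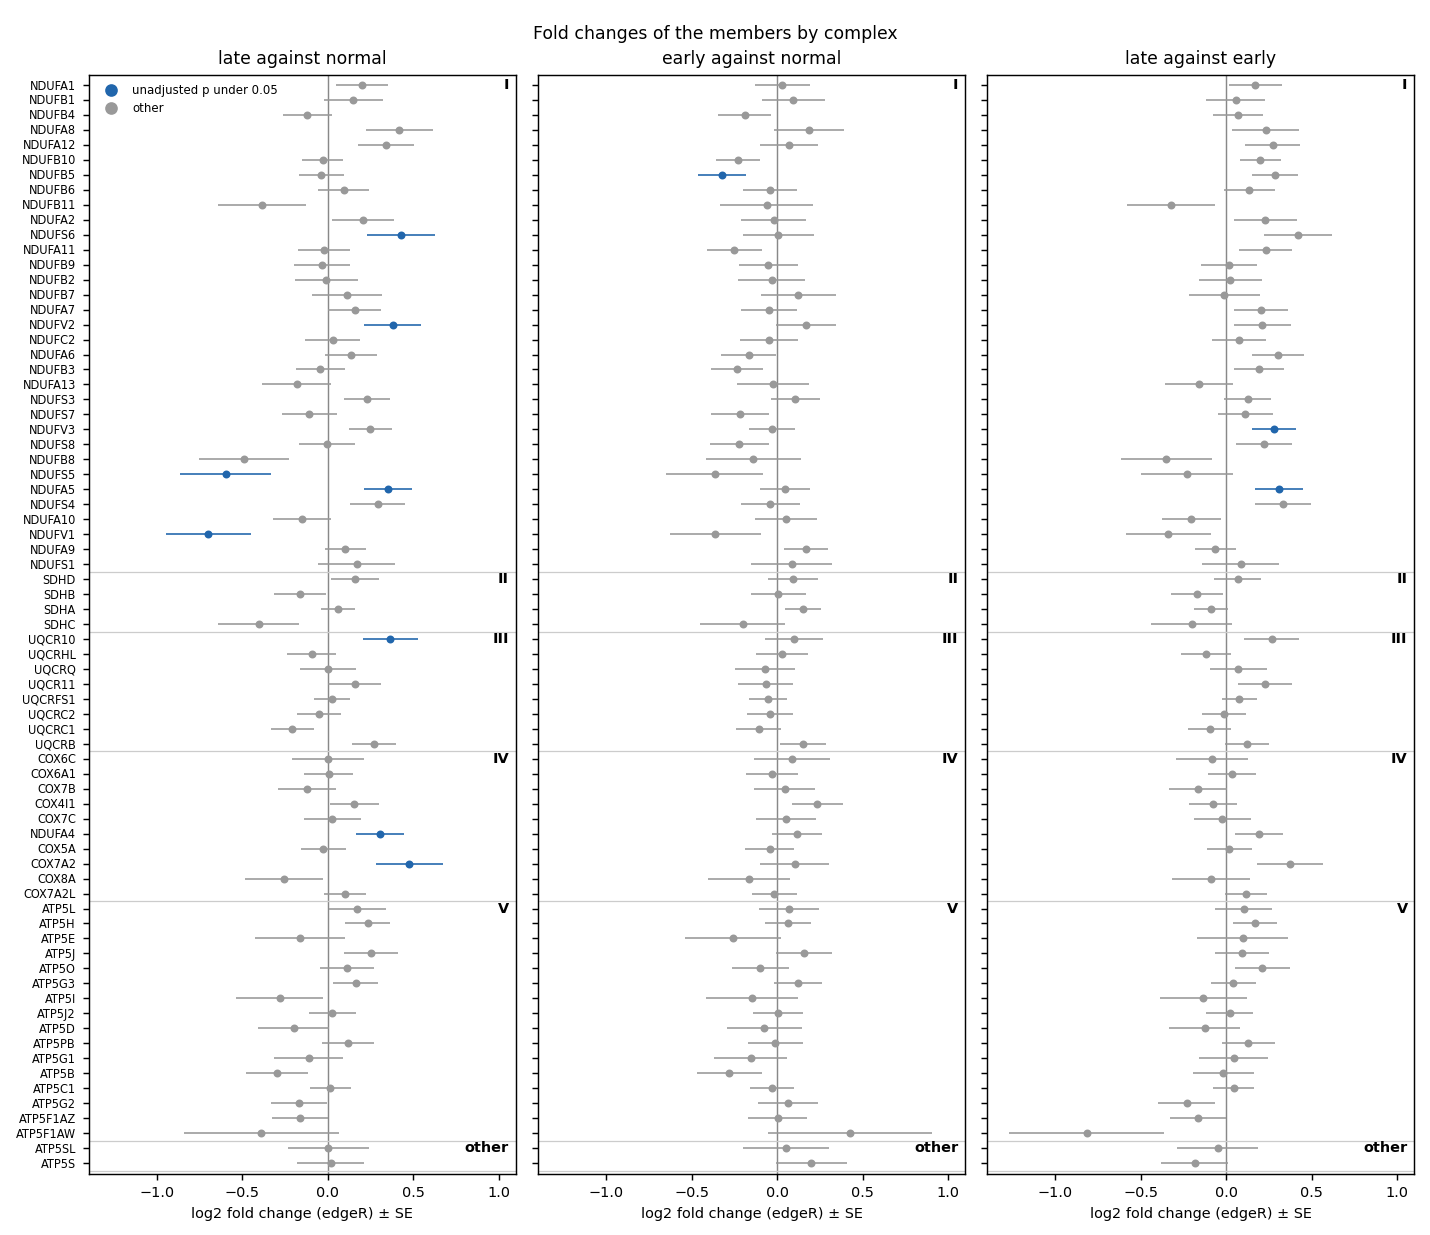
Log2 fold change (edgeR, bars SE) of each of 73 of the 74 genes, by complex (Roman numerals), in late tumours against normal ovaries, early tumours against normal ovaries and late against early tumours. Blue marks an unadjusted p under 0.05 (8, 1 and 2 of the genes drawn in the 3 panels), none had an adjusted p under 0.05, and most points lie within 0.5 of zero.

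Complex I, with the most genes (34), held the widest range of log2 fold changes in late tumours against normal ovaries, -0.70 to 0.43, with no edgeR-adjusted call. A range tends to widen with the number of genes. The lower and upper quartiles were -0.09 and 0.21 in complex I and -0.18 and 0.13 in complex V. NDUFV1, the core subunit that binds NADH and the flavin, had 73.6, 69.1, 68.1, 121 and 66.9 normalised CPM in late tumours 3, 7, 23, 25 and 31, 126, 62.7, 93.5 and 121 CPM in early tumours 9, 11, 12 and 21, and 142, 173, 117 and 86.0 CPM in normal ovaries 3, 4, 6 and 7. Late tumours other than 25 lay below all normal ovaries, late tumour 25 lay inside the normal range, and early tumours ran from the lowest value of all to the normal range. The log2 fold change in late tumours against normal ovaries was -0.70 ± 0.25 (SE; edgeR adjusted p = 0.244), with a 95% interval of -1.19 to -0.21. Limma voom put it at -0.80 with an adjusted p of 0.0449, and over all alternatives run the adjusted p ranged from 0.0449 to 0.611. In early tumours against normal ovaries it was -0.36 ± 0.26 (edgeR adjusted p = 0.916).

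NDUFV2 is the iron-sulphur subunit that sits beside NDUFV1 in the NADH-oxidising module. It had 214, 176, 166, 177 and 174 CPM in late tumours, 140, 205, 156 and 125 CPM in early tumours and 108, 130, 145 and 175 CPM in normal ovaries, in the same sample order. Late tumours were mostly above the normal ovaries but met them at normal ovary 7, and the log2 fold change was 0.38 ± 0.17 (edgeR adjusted p = 0.268). The ratio of NDUFV1 to NDUFV2, taken on the TPM scale after these values were seen and therefore without a test, was 0.188, 0.224, 0.229, 0.388 and 0.191 in late tumours, 0.441, 0.164, 0.301 and 0.460 in early tumours and 0.570, 0.613, 0.412 and 0.270 in normal ovaries. It averaged 0.244 ± 0.0825, 0.341 ± 0.138 and 0.466 ± 0.157 in late, early and normal samples (SD, n = 5, 4 and 4), and the groups overlapped through late tumour 25 and normal ovary 7.

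Smooth muscle markers varied with NDUFV1 in some of the same libraries and not in others. The summed smooth muscle markers were 11225 and 9153 CPM in normal ovaries 4 and 3, the highest 2 libraries for NDUFV1, and 873 CPM in normal ovary 7, the lowest normal library for it. Among late tumours they were highest in 25, at 1964 CPM, which was also the late library highest in NDUFV1. Late tumour 3 was an exception, with the lowest sum of all libraries, 256 CPM, and the second highest NDUFV1 of the late tumours, 73.6 CPM. Among early tumours they were lowest in 11, at 558 CPM, the library lowest in NDUFV1. All 10 tested smooth muscle markers had a lower fitted level in late tumours than in normal ovaries, each at an unadjusted p under 0.05 and none after adjustment (edgeR), while DESeq2 called 5 and limma voom 3 of them, all lower. Summed fibroblast markers ran alike, at 10941 and 7128 CPM in normal ovaries 3 and 4 and 2764 CPM in normal ovary 7. They were 3863 CPM in late tumour 25, 463 CPM in late tumour 3 and 992 CPM in early tumour 11. The part of either set of markers in the NDUFV1 difference was not tested.

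NDUFS5, an accessory subunit on the intermembrane side of the membrane arm, ranged over 37.2 to 87.7 CPM in late tumours (median 49.96), 49.99 to 77.8 CPM in early tumours and 53.4 to 126 CPM in normal ovaries, with a log2 fold change of -0.60 ± 0.27 in late tumours against normal ovaries (edgeR adjusted p = 0.268; unadjusted p under 0.05). All 3 groups overlapped, and the highest late tumour was 25.

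Some other accessory subunits had positive fold changes in late tumours against normal ovaries, with no edgeR-adjusted call. NDUFS6, a zinc-binding accessory subunit needed late in assembly of the complex, had 104, 95.4, 117, 101 and 111 CPM in late tumours, 65.3, 117, 80.3 and 54.3 CPM in early tumours and 61.7, 71.3, 90.4 and 91.4 CPM in normal ovaries. Every late tumour was above every normal ovary, whereas early tumours spanned both. The log2 fold change in late tumours against normal ovaries was 0.43 ± 0.20 (edgeR adjusted p = 0.279), the highest in complex I.

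NDUFA5, an accessory subunit of the hydrophilic arm, had 148, 122, 129, 137 and 104 CPM in late tumours, 86.8, 124, 94.4 and 108 CPM in early tumours and 87.6, 105, 103 and 106 CPM in normal ovaries. Late tumours exceeded the normal ovaries except for late tumour 31, which lay within the normal range. The log2 fold change was 0.35 ± 0.14 in late tumours against normal ovaries (edgeR adjusted p = 0.252) and 0.31 ± 0.14 in late against early tumours (edgeR adjusted p = 0.736). NDUFV3, an accessory subunit of the NADH-oxidising module, had 71.9 to 88.0 CPM in late tumours, 60.6 to 73.0 CPM in early tumours and 54.1 to 78.6 CPM in normal ovaries. Late and early tumours met at late tumour 31 and early tumour 9, and the log2 fold change between them was 0.28 ± 0.13 (edgeR adjusted p = 0.736).

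NDUFB5 and NDUFB10, accessory subunits of the membrane arm, were among the 3 members with the smallest p in early tumours against normal ovaries. NDUFB5 had 143, 126, 131 and 127 CPM in early tumours, all below the 146, 178, 184 and 152 CPM of normal ovaries. Late tumours, at 183, 128, 160, 186 and 146 CPM, reached into both ranges. Its log2 fold change was -0.32 ± 0.14 in early tumours against normal ovaries (edgeR adjusted p = 0.916) and 0.28 ± 0.13 in late against early tumours (edgeR adjusted p = 0.736). NDUFB10 had 145 to 159 CPM in early tumours and 157 to 188 CPM in normal ovaries, which overlapped, with a log2 fold change of -0.23 ± 0.13 (edgeR adjusted p = 0.916). The remaining member of complex I singled out by level, NDUFA1, had a log2 fold change of 0.20 ± 0.15 in late tumours against normal ovaries (edgeR adjusted p = 0.477).

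Core and accessory subunits of complex I can be set side by side. Of the 7 core subunits, 3 had a positive log2 fold change in late tumours against normal ovaries, and their median was -0.00, within a range of -0.70 to 0.38. Of the 27 accessory subunits, 15 were positive, with a median of 0.09 and a range of -0.60 to 0.43. In late against early tumours 5 of 7 core and 20 of 27 accessory subunits were positive, where 50.5% of all genes were. No edgeR-adjusted call was made in either class, and genes of a class can vary together, so these counts are not of independent genes.

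Complex II showed no call. SDHC, a membrane anchor that helps hold the ubiquinone site, had 28.8, 22.4, 25.3, 39.9 and 31.2 CPM in late tumours, 37.7, 21.02, 32.8 and 44.4 CPM in early tumours and 50.3, 43.2, 34.5 and 28.4 CPM in normal ovaries. All 3 groups overlapped, normal ovary 7 standing below late tumours 3, 25 and 31. In late tumours against normal ovaries its log2 fold change was -0.41 ± 0.24 (edgeR adjusted p = 0.360), the lowest in complex II. SDHD, the other anchor, had 203 to 263 CPM in late tumours, 191 to 255 CPM in early tumours and 171 to 221 CPM in normal ovaries, with a log2 fold change of 0.16 ± 0.14 (edgeR adjusted p = 0.539).

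SDHA, the catalytic flavoprotein, had 160, 156, 146, 140 and 162 CPM in late tumours, 173, 157, 159 and 160 CPM in early tumours and 156, 147, 140 and 141 CPM in normal ovaries. Early tumours lay above normal ovaries by a narrow margin and late tumours overlapped both. Its log2 fold change in early tumours against normal ovaries was 0.15 ± 0.11, with a 95% interval of -0.05 to 0.36 (edgeR adjusted p = 0.916). SDHB, the iron-sulphur subunit, had log2 fold changes of -0.16 ± 0.15 in late tumours against normal ovaries and 0.01 ± 0.16 in early tumours against normal ovaries.

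In complex III the highest fold change in late tumours against normal ovaries was that of UQCR10 and the lowest that of UQCRC1. UQCR10, a small accessory subunit, had the highest level of the complex at 1128 ± 90.1 TPM in late tumours, 935 ± 191 TPM in early tumours and 868 ± 158 TPM in normal ovaries. In normalised CPM it had 151, 151, 168, 223 and 144 in late tumours, 144, 143, 146 and 124 in early tumours and 96.1, 129, 144 and 150 in normal ovaries. Late tumour 25 was above every other library and normal ovary 3 below every other, and late tumours and normal ovaries overlapped between 144 and 150 CPM. Set against normal ovaries, late tumours had a log2 fold change of 0.37 ± 0.16 (edgeR adjusted p = 0.266).

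UQCRC1, a core protein on the matrix side, had 114, 115, 140, 157 and 151 CPM in late tumours, 146, 147, 140 and 147 CPM in early tumours and 173, 154, 157 and 141 CPM in normal ovaries. Late tumours 3 and 7 were below all other libraries and the rest overlapped, with a log2 fold change of -0.21 ± 0.12 in late tumours against normal ovaries (edgeR adjusted p = 0.370). UQCRFS1, the Rieske protein that passes electrons towards cytochrome c, had a log2 fold change of 0.02 in late tumours against normal ovaries with a 95% interval of -0.18 to 0.23, and of -0.05 in early tumours against normal ovaries with an interval of -0.27 to 0.16. Those are among the narrowest intervals of the set.

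Complex IV included the member with the highest fold change in late tumours. COX7A2, the form of subunit 7A known from non-muscle tissues in mammals, had 205, 176, 159, 180 and 132 CPM in late tumours, 143, 129, 115 and 139 CPM in early tumours and 89.6, 114, 105 and 182 CPM in normal ovaries. Late tumours were above normal ovaries 3, 4 and 6, while normal ovary 7 lay among the highest late values and early tumours lay above normal ovaries 3, 4 and 6 and met the lowest late tumour. For late tumours against normal ovaries the log2 fold change was 0.48 ± 0.19, with a 95% interval of 0.10 to 0.86 (edgeR adjusted p = 0.254). Limma voom put it at 0.59 with an adjusted p of 0.0472, and the adjusted p ranged from 0.0472 to 0.611 over all alternatives run. Without normal ovary 7 the edgeR log2 fold change was 0.74. NDUFA4, named for complex I and found in complex IV in mammals, had 289 to 363 CPM in late tumours, 241 to 330 CPM in early tumours and 236 to 300 CPM in normal ovaries, with a log2 fold change of 0.31 ± 0.14 in late tumours against normal ovaries (edgeR adjusted p = 0.273).

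Other complex IV genes had smaller fold changes. COX4I1, the broadly expressed form of the regulatory subunit 4, had 275, 291, 275, 358 and 268 CPM in late tumours, 353, 320, 254 and 315 CPM in early tumours and 220, 271, 273 and 290 CPM in normal ovaries. Early tumours 9, 11 and 21 were above the normal range and early tumour 12 inside it, and the log2 fold change in early tumours against normal ovaries was 0.24 ± 0.15 (edgeR adjusted p = 0.916). COX8A, a small subunit, had the lowest fold change of the complex in late tumours against normal ovaries, -0.26 ± 0.23 (edgeR adjusted p = 0.543), with 35.0 to 82.2 CPM in late tumours, 47.5 to 63.5 CPM in early tumours and 45.2 to 83.3 CPM in normal ovaries. COX6A1 and COX6C both had a log2 fold change of 0.00 in late tumours against normal ovaries. COX7A2L, a factor that joins complexes III and IV into supercomplexes in mammals, had one of 0.10 ± 0.12 (edgeR adjusted p = 0.671). Tissue-restricted or inducible forms that mammals pair with these subunits (COX4I2, COX6A2, COX7A1, COX8C and NDUFA4L2) had no symbol in the table and were not analysed here.

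**Figure D3:**
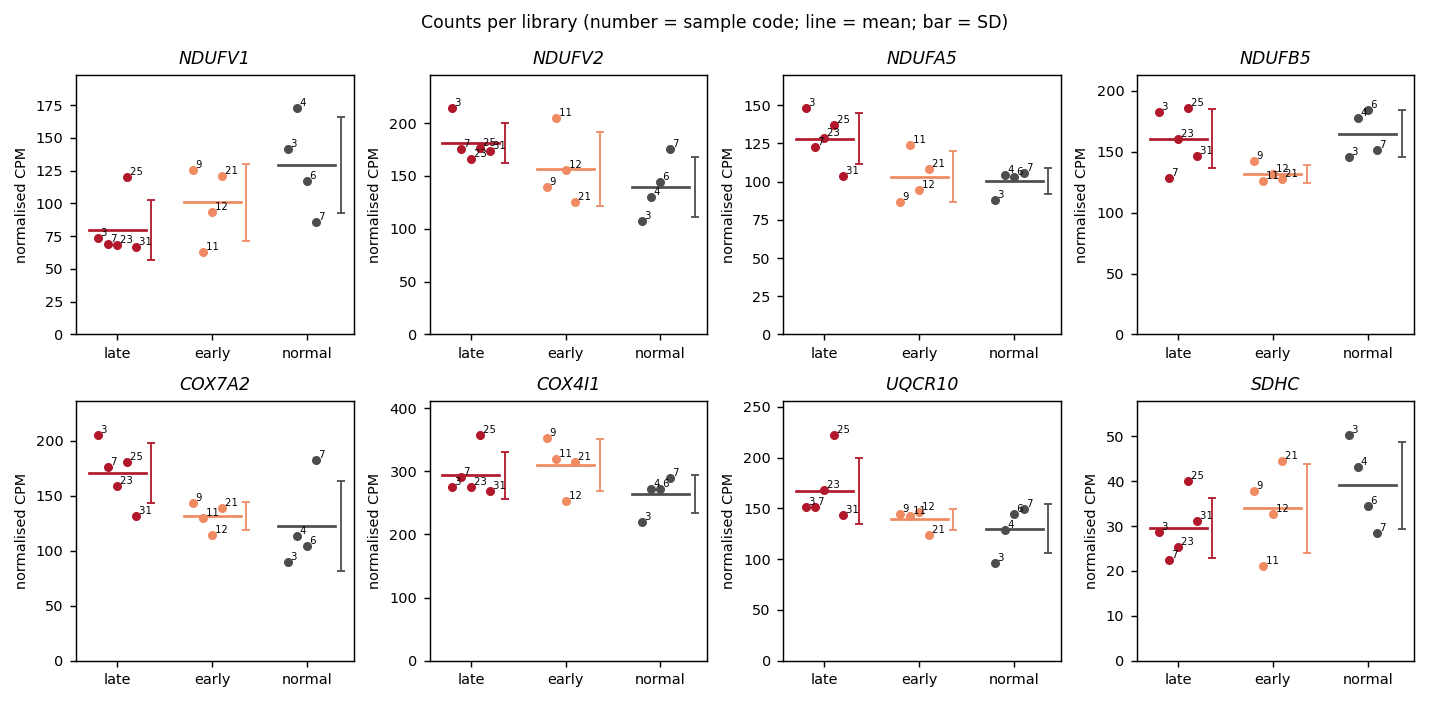
Normalised CPM of 8 genes in each library (points with sample codes; lines are group means, bars SD) for late tumours (n = 5), early tumours (n = 4) and normal ovaries (n = 4). NDUFV1 and SDHC are low in most late tumours and NDUFV2, NDUFA5, COX7A2 and UQCR10 high, with late tumour 25 at 121 CPM for NDUFV1 and normal ovary 7 at 182 CPM for COX7A2 lying across the other group, and NDUFB5 is 126 to 143 CPM in early tumours, below the 146 to 184 CPM of normal ovaries.

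Complex V had fold changes of both signs: 8 of 16 members had a positive log2 fold change in late tumours against normal ovaries, 8 of 16 in early tumours against normal ovaries and 10 of 16 in late against early tumours. Its parts differed in sign without any call. The 4 genes of the peripheral stalk (ATP5PB, ATP5H, ATP5J and ATP5O), which holds the head still, were all positive in late tumours against normal ovaries, between 0.11 and 0.25. The 3 genes of the catalytic head (ATP5F1AW, ATP5F1AZ and ATP5B) were all negative, between -0.39 and -0.16, ATP5F1AW and ATP5F1AZ being copies of the alpha subunit gene. These fold changes were small beside their SE, as for ATP5O (0.11 ± 0.16) and ATP5F1AZ (-0.16 ± 0.16). In early tumours against normal ovaries 2 of 4 stalk genes and 2 of 3 head genes were positive. In late against early tumours 4 of 4 stalk genes and 0 of 3 head genes were. Signs in late tumours against normal ovaries were mixed in the central stalk (1 of 3 positive), the c ring (1 of 3) and subunits e, f and g (2 of 3). ATP5J, coupling factor 6, had the highest fold change of the complex at 0.25 ± 0.16 (edgeR adjusted p = 0.388), with 175, 187, 194, 220 and 175 CPM in late tumours, 214, 161, 140 and 199 CPM in early tumours and 126, 155, 165 and 194 CPM in normal ovaries. Normal ovary 7 lay inside the late range. ATP5L, the member with the highest mean TPM over all libraries, had a log2 fold change of 0.17 ± 0.17 (edgeR adjusted p = 0.578).

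The c ring, the rotor that protons turn, is encoded by 3 genes that in mammals specify the same mature protein. ATP5G3 had 246, 235, 223, 222 and 219 CPM in late tumours, 198, 266, 246 and 182 CPM in early tumours and 217, 218, 179 and 205 CPM in normal ovaries. Its lowest late tumour (219 CPM) lay just above its highest normal ovary (218 CPM), with a log2 fold change of 0.16 ± 0.13 (edgeR adjusted p = 0.501), and early tumours spanned both groups. ATP5G1 and ATP5G2 had log2 fold changes of -0.11 ± 0.20 and -0.17 ± 0.17. How reads shared by similar genes were assigned is not given in the sources used here, so the split among the 3 genes is uncertain.

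The alpha subunit of the catalytic head is represented by copies on both sex chromosomes of the hen, ATP5F1AZ and ATP5F1AW, and reads shared by these similar genes could be split between them. ATP5F1AW had 28.1, 46.5, 38.0, 51.2 and 7.05 TPM in late tumours 3, 7, 23, 25 and 31, 77.0, 40.5, 45.8 and 63.2 TPM in early tumours and 62.4, 28.1, 49.5 and 40.8 TPM in normal ovaries. Late tumour 31 stood far below the other 12 libraries, with 161 estimated counts of ATP5F1AW against 3677 of ATP5F1AZ. There the W copy made up 4.004% of the TPM of both copies, against 17.0% to 36.6% in the other libraries.

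The sum of both copies was not low in late tumour 31. It was 153, 176, 158, 189 and 176 TPM in late tumours, 210, 189, 213 and 193 TPM in early tumours and 268, 166, 179 and 155 TPM in normal ovaries. Late and normal samples overlapped, and so did early and normal samples. HINTW, another gene named for the W chromosome and looked at after these values were seen, had 229 TPM in late tumour 31, the highest of the 13 libraries, in which it ranged from 110 to 229 TPM. In normalised CPM, HINTW was 53.3 there, inside its range of 25.4 to 62.4 and below normal ovary 4 (62.4) and early tumour 21 (61.9). The log2 fold change of ATP5F1AW was -0.39 ± 0.45 in late tumours against normal ovaries (edgeR adjusted p = 0.649), 0.43 ± 0.48 in early tumours against normal ovaries (edgeR adjusted p = 0.937) and -0.82 ± 0.45 in late against early tumours (edgeR adjusted p = 0.736). With the counts of both copies summed, a choice made after seeing the data, the log2 fold change in late tumours against normal ovaries was -0.21 ± 0.17.

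**Figure D4:**
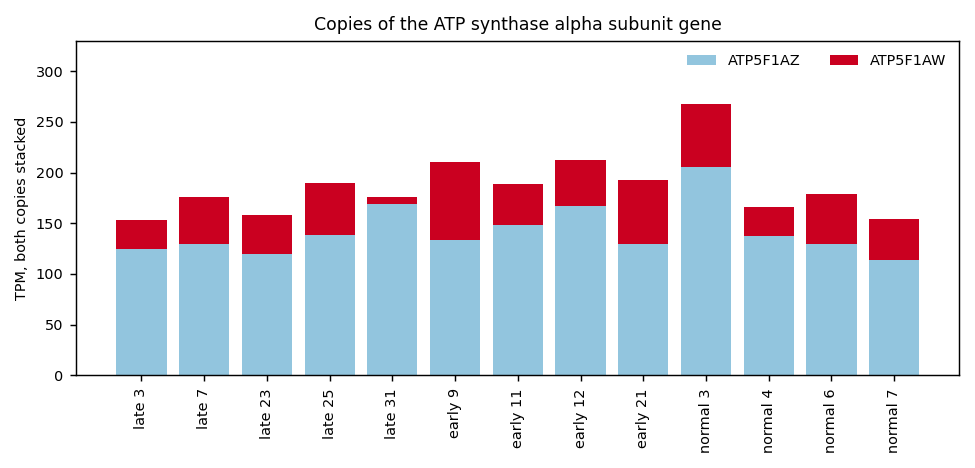
TPM of ATP5F1AZ (blue) and ATP5F1AW (red), stacked, in each late tumour, early tumour and normal ovary. The W copy is 7.05 TPM in late tumour 31 and 28.1 to 77.0 TPM elsewhere, while the sum of both copies there, 176 TPM, lies inside the range of the other libraries.

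Variation among libraries followed a pattern that crossed the groups. The leading principal axis of the 74 members (log2 of CPM plus an offset of 2, centred per gene) held 44.4% of their variance and the second axis 21.6%. The 6 genes weighted most strongly towards its low end were ATP5F1AW, NDUFV1, NDUFS5, NDUFB8, NDUFB11 and ATP5I, and the 6 towards its high end were NDUFS6, NDUFS1, NDUFA8, NDUFV2, NDUFA12 and NDUFS4, all of complex I. ATP5F1AW had the largest weight, -0.39, followed by NDUFV1 at -0.28. It had 7.75 CPM in late tumour 31, the library with the highest score, and 32.0 to 112 CPM in the others. That score therefore rests partly on this gene, and no axis without it is given here. Scores were 1.87, 0.83, 0.82, -1.56 and 2.44 in late tumours, -2.09, 1.67, 0.53 and -1.43 in early tumours and -1.14, -2.12, -0.57 and 0.74 in normal ovaries. Late tumours other than 25 had positive scores and normal ovaries other than 7 negative ones, while early tumours divided, with 9 and 21 low and 11 and 12 high.

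The same libraries separated in the rest of the transcriptome. The leading axis of the other 16056 genes tested held 52.5% of their variance, and 3 of the 4 lowest and 3 of the 4 highest libraries on it were also among the 4 lowest and 4 highest on the members' axis. Summed smooth muscle markers were 4706 and 2286 CPM in early tumours 9 and 21, against 558 and 745 CPM in early tumours 11 and 12, and summed fibroblast markers were 7390 and 5273 CPM against 992 and 1927 CPM. Immune and vascular markers divided the same libraries: in early tumours 9 and 21 against 11 and 12, summed macrophage markers (8 of 8 in the table) were 1568 and 1396 against 309 and 352 CPM, and T and B lymphocyte markers (10 of 10, with CD79B and PAX5 at 0 in at least 1 library) 5112 and 2627 against 1325 and 1203 CPM. Pericyte markers (5 of 6) were 649 and 565 against 180 and 181 CPM, and endothelial markers (9 of 9) 833 and 787 against 569 and 537 CPM. Summed epithelial and striated muscle markers were also higher in early tumours 9 and 21. Oocyte and germ cell markers (6 of 7) ran the other way, at 655 and 804 against 1200 and 1076 CPM. Summed granulosa and theca, adipose and red blood cell markers did not divide these libraries. The part of these cell types in the members' pattern was not tested. The mean member level relative to its own average was another quantity: it was highest in late tumour 25 (0.29 on the log2 scale) and lay between -0.13 and 0.14 in the other 12 libraries.

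**Figure D5:**
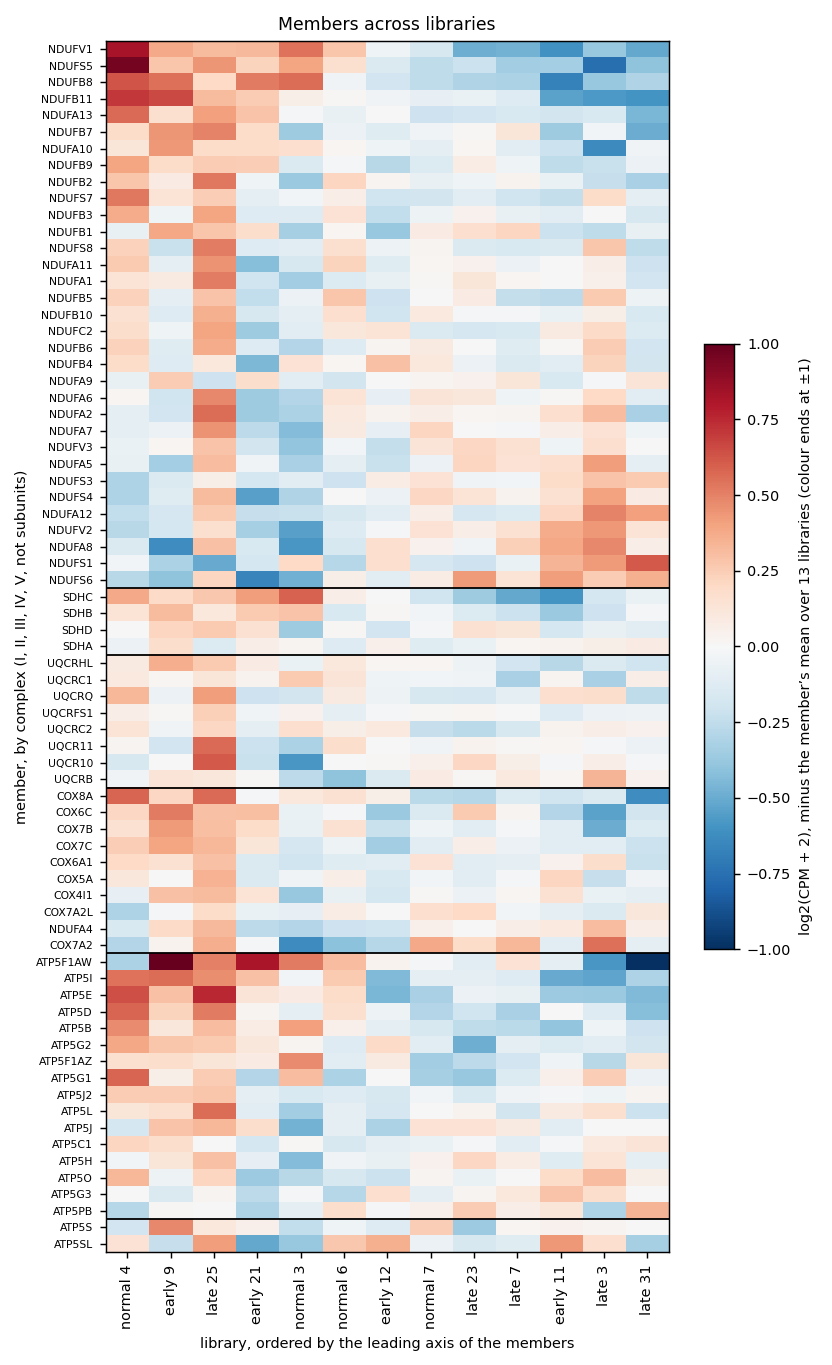
Log2 of CPM plus 2 for each of 73 of the 74 members, minus that member's mean over the 13 libraries, with libraries ordered by their score on the members' leading axis (from -2.12 in normal ovary 4 to 2.44 in late tumour 31) and genes grouped by complex. Late tumour 25, early tumours 9 and 21 and normal ovaries 3, 4 and 6 stand on the left and the other late tumours, early tumours 11 and 12 and normal ovary 7 on the right, and NDUFV1, NDUFS5, NDUFB8 and NDUFB11 are high where NDUFS6, NDUFS1, NDUFA8 and NDUFV2 tend to be low.

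Some subunits carry symbols outside the naming rule. USMG5, a small membrane subunit of the ATP synthase, had 243, 247, 236, 191 and 221 CPM in late tumours, 214, 239, 193 and 230 CPM in early tumours and 147, 170, 172 and 212 CPM in normal ovaries. Late and early tumours were above normal ovaries 3, 4 and 6 and overlapped normal ovary 7. Its log2 fold change was 0.38 ± 0.13 in late tumours against normal ovaries (edgeR adjusted p = 0.244) and 0.32 ± 0.14 in early tumours against normal ovaries (edgeR adjusted p = 0.916). Limma voom put the late against normal value at 0.46 with an adjusted p of 0.0449. In late tumours against normal ovaries, C14orf2, another small ATP synthase subunit, had a log2 fold change of 0.11 ± 0.18, and NDUFAB1, the acyl carrier protein found in complex I, had one of -0.02 ± 0.16. ATPIF1, the inhibitor of ATP hydrolysis by the synthase, had 99.2, 95.7, 109, 167 and 76.1 CPM in late tumours, 120, 96.2, 112 and 108 CPM in early tumours and 123, 164, 139 and 105 CPM in normal ovaries, with a log2 fold change of -0.28 ± 0.20 in late tumours against normal ovaries (edgeR adjusted p = 0.448).

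Other genes of the pathway were read from lists of assembly factors, electron carriers, regulators, citric acid cycle enzymes and mitochondrial ribosomal proteins, and edgeR and DESeq2 called none of them in any comparison. Limma voom called some in late tumours against normal ovaries, where it called 5.55% of all genes, and none in the other comparisons. Genes of a list can vary together across libraries, so the shares of positive genes below do not count independent shifts. Shares without single libraries are not given for these lists. Of 46 assembly factors, which insert cofactors and join subunits, 36 had a positive log2 fold change in late tumours against normal ovaries (median 0.12), against 50.9% of all genes, with 3 higher and 1 lower at an unadjusted p under 0.05, 8.70% against 17.9% of all genes, and 1 called by limma voom (2.17%). CMC2, a factor of complex IV biogenesis, had 72.3 to 115 CPM in late tumours, 56.9 to 118 CPM in early tumours and 47.2 to 78.5 CPM in normal ovaries, with a log2 fold change of 0.61 ± 0.22 in late tumours against normal ovaries (edgeR adjusted p = 0.245; limma voom adjusted p = 0.0449). NUBPL, which delivers iron-sulphur clusters to complex I, had a log2 fold change of 0.32 ± 0.13 (edgeR adjusted p = 0.257; limma voom adjusted p = 0.0708).

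Of 73 mitochondrial ribosomal protein genes, whose products translate the subunits encoded in mitochondrial DNA, 55 were positive in late tumours against normal ovaries (75.3%, against 50.9% of all genes; median 0.17). At an unadjusted p under 0.05, 8 were higher and 1 lower, 12.3% against 17.9% of all genes, and limma voom called 3 (2 higher and 1 lower, 4.11%). In late against early tumours 61 of 73 were positive (83.6%, against 50.5% of all genes; median 0.20), with 5 higher and 0 lower at an unadjusted p under 0.05, 6.85% against 6.34% of all genes. MRPL32 had 162, 106, 106, 122 and 102 CPM in late tumours, 82.3, 132, 89.96 and 79.6 CPM in early tumours and 56.7, 66.0, 79.2 and 88.2 CPM in normal ovaries. Its late tumours were all above its normal ovaries, with a log2 fold change of 0.72 ± 0.20 (edgeR adjusted p = 0.244; limma voom adjusted p = 0.0449). MRPL42 had a log2 fold change of 0.66 ± 0.22 (edgeR adjusted p = 0.244; limma voom adjusted p = 0.0449).

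Pyruvate dehydrogenase and the citric acid cycle supply the chain with electrons. Of 16 genes of pyruvate dehydrogenase and the citric acid cycle, 10 had a negative log2 fold change in late tumours against normal ovaries (62.5%, against 49.1% of all genes; median -0.14). At an unadjusted p under 0.05, 1 was higher and 3 lower, 4 of 16 genes beside 17.9% of all genes. Limma voom also called 1 higher and 3 lower, beside 5.55% of all genes. CS, citrate synthase, had 37.6, 27.6, 24.3, 48.4 and 37.4 CPM in late tumours, 40.0, 27.4, 45.8 and 48.6 CPM in early tumours and 106, 69.0, 50.1 and 33.6 CPM in normal ovaries. Normal ovaries 3, 4 and 6 were above every tumour and normal ovary 7 was inside the tumour range. The log2 fold change was -0.88 ± 0.30 in late tumours against normal ovaries (edgeR adjusted p = 0.244; limma voom adjusted p = 0.0452) and -0.68 ± 0.32 in early tumours against normal ovaries (edgeR adjusted p = 0.916). DLST, a subunit of the oxoglutarate dehydrogenase complex, had a log2 fold change of -0.78 ± 0.24 in late tumours against normal ovaries (edgeR adjusted p = 0.244; limma voom adjusted p = 0.0449). Normal ovaries 3 and 4, highest in CS, were also highest in summed smooth muscle markers, at 9153 and 11225 CPM. Their summed fibroblast markers, 10941 and 7128 CPM, were above those of the other normal ovaries. Early tumour 9 was an exception, with 4706 CPM of smooth muscle and 7390 CPM of fibroblast markers. Its CS, 40.0 CPM, lay inside the range of the late tumours. The part of either set of markers in these values was not tested.

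Of 13 genes for electron carriers and coenzyme Q synthesis, 7 were positive in late tumours against normal ovaries (median 0.03), 53.8% against 50.9% of all genes. In early tumours against normal ovaries 1 was positive (median -0.12), 7.69% against 52.0%, and in late against early tumours 10 (median 0.14), 76.9% against 50.5%. At an unadjusted p under 0.05, 2 were higher and 1 lower in late tumours against normal ovaries, 23.1% against 17.9% of all genes. In late against early tumours 3 were higher and 0 lower, 23.1% against 6.34% of all genes. None passed in early tumours against normal ovaries, where 5.04% of all genes did. Limma voom called 1 of the 13 genes in late tumours against normal ovaries, COQ4, which was lower (7.69%, against 5.55% of all genes). CYCS, cytochrome c, had 631, 558, 503, 487 and 500 CPM in late tumours, 283, 447, 470 and 288 CPM in early tumours and 347, 376, 374 and 490 CPM in normal ovaries. Every late tumour was above every early tumour, and normal ovary 7 overlapped the late range. Its log2 fold change was 0.43 ± 0.19 in late tumours against normal ovaries (edgeR adjusted p = 0.259; limma voom adjusted p = 0.0601) and 0.53 ± 0.19 in late against early tumours (edgeR adjusted p = 0.736). COQ4, needed for coenzyme Q synthesis, had a log2 fold change of -0.65 ± 0.21 in late tumours against normal ovaries (edgeR adjusted p = 0.244; limma voom adjusted p = 0.0449). Of 15 regulators of mitochondrial gene expression, 8 were positive in late tumours against normal ovaries (median 0.04), 53.3% against 50.9% of all genes. At an unadjusted p under 0.05, 1 was higher and 0 lower, 6.67% against 17.9% of all genes, and limma voom called 1 (6.67%, against 5.55%). TFB2M, a mitochondrial transcription factor, had a log2 fold change of 0.46 ± 0.18 (edgeR adjusted p = 0.249, limma voom adjusted p = 0.0493). GABPB1, a subunit of a nuclear activator of respiratory genes, had one of 0.37 ± 0.17 (edgeR adjusted p = 0.279, limma voom adjusted p = 0.0733).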

How the data were processed

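The authors' deposited gene table for messenger RNA contains estimated counts without normalization, of which 29.1% were not whole and were rounded. TPM values come from the authors' other deposited table. Per the submitters' processing notes, FastQC, BWA and GATK 3.3.0 were used, without a stated role. The build and the way reads were counted (program, strand, shared reads) were not given in the sources used here. The labels list 26 library records for 13 codes, so columns were matched to groups by code, and the miRNA table was not used here.

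EdgeR 4.0.16 (R 4.3.3) fitted all 13 libraries with a mean per group, by glmQLFit with robust estimation, TMM scaling and filterByExpr with a minimum count of 10, which kept 16130 genes and all 74 members. Benjamini-Hochberg adjustment ran over all genes tested, with a threshold of 0.05. A total of 90 groups of values was screened for single libraries standing apart. DESeq2 1.42.0, limma 3.58.1 (voom with quality weights, and log2(TPM + 1) or log2(TPM + 0.1)), other scalings and filters, a replicate block and leaving out each library were alternatives. The fit was tested on simulated data.

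Members, gene lists and markers were chosen with earlier results of these data known. Genes were named by a rule: per complex the highest TPM and the highest and lowest late against normal fold change, any member called by a tool, the 3 smallest p per comparison, members with paralogues of tissue-restricted form in mammals, ATPIF1, and the 2 smallest p per pathway list. NDUFV2, NDUFS5, NDUFS1, NDUFA9, SDHA, SDHB, UQCRFS1, ATP5F1AZ, USMG5, C14orf2, NDUFAB1, HINTW, the stalk genes and those of the leading axis were named after their values were seen. SE is that implied by the F statistic, and intervals given as 95% are 1.96 SE either side. With so few libraries such intervals are somewhat too narrow. NDUFA8 in late tumours against normal ovaries had one of 0.03 to 0.80 beside an unadjusted edgeR p of 0.0522. Sequences are not shown, and values of 1 complex I member are not reported here, although it enters the counts and sums.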

Additional observations from a re-analysis of the deposited data

Results flagged for a closer look

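Dixon's 95% critical value was passed by a single library in 5 of 90 groups of 4 or 5 libraries. Each group was a gene in late, early or normal samples, and not every gene named in the text was screened. Chance marks about 1 in 20 such groups, so 5 of 90 is near what chance gives for the groups screened. Outside the screen, NDUFV2 was 214 CPM in late tumour 3 and 166 to 177 CPM in the other late tumours. UQCRFS1, also outside it, was 177 CPM in late tumour 25 and 144 to 151 CPM in the other late tumours. NDUFV1 was 121 CPM in late tumour 25 and 66.9 to 73.6 CPM in the other late tumours. COX4I1 was 358 CPM in the same library and 268 to 291 CPM in the other late tumours. UQCR10 was 124 CPM in early tumour 21, below the 143 to 146 CPM of the other early tumours. SDHD was 171 CPM in normal ovary 3, below the 218 to 221 CPM of the other normal ovaries. NDUFA5 was 87.6 CPM in normal ovary 3, below the 103 to 106 CPM of the other normal ovaries.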

How the results depend on the processing

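No member was called in any of the 3 comparisons by edgeR under any alternative scaling or filter, by DESeq2, by limma on the TPM values, or by edgeR with only the 2 groups compared, or without any single library. Limma voom with quality weights called 2 in late tumours against normal ovaries (NDUFV1 at -0.80 and COX7A2 at 0.59 on the log2 scale) and 0 in the others, and the cause was not tested. The number past an unadjusted p of 0.05 in late tumours against normal ovaries (6 higher, 3 lower) was 13 higher and 6 lower without normal ovary 7, 0 and 1 without normal ovary 3, 2 and 0 without normal ovary 4, 1 and 2 without late tumour 3, 4 and 1 without late tumour 7 or 31, and 3 and 2 without early tumour 12. Without late tumour 25 it was 2 higher and 8 lower. In late against early tumours it reached 6 higher and 1 lower without early tumour 11, 5 and 0 without late tumour 31, 0 and 3 without late tumour 25, 1 and 0 without late tumour 7 or 23, and 0 in either direction without early tumour 12, early tumour 21, late tumour 3 or normal ovary 6. In early tumours against normal ovaries it was 0 without early tumour 11 or 21 or normal ovary 4 or 6, 2 lower without normal ovary 3, and 1 higher and 1 lower without normal ovary 7. The median log2 fold change of the members, leaving out each library, ranged from -0.07 to 0.09 in late tumours against normal ovaries, from -0.05 to 0.05 in early tumours against normal ovaries and from -0.02 to 0.10 in late against early tumours.

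Normal and late samples share code numbers 3 and 7, and the deviations of same-numbered samples correlated at r = -0.0036 and -0.15. Such deviations also carry differences in tissue content, so these values cannot decide whether same-numbered samples came from the same hen. With the code as a replicate block, 0 members were called and the medians were 0.01, -0.06 and 0.08 in late against normal, early against normal and late against early samples.

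Of 622 values of named members under the alternatives, 599 kept direction and side of the threshold and 21 turned sign, all near 0 in late tumours against normal ovaries. COX6C was -0.0057 with DESeq2 size factors, -0.0049 without a filter, -0.0034 with DESeq2, -0.0023 with log2(TPM + 1), -0.0024 with log2(TPM + 0.1), -0.0481 with the replicate block and -0.0826 to 0.110 leaving out each library. COX6A1 was -0.0074 with DESeq2 size factors, -0.0072 without a filter, -0.0047 with DESeq2, -0.0200 with limma voom and -0.0737 to 0.0794 leaving out each library. ATP5G1 ranged from -0.23 to 0.10 leaving out each library, positive without normal ovary 4. The groups held 4 or 5 libraries, and a p that misses the threshold does not show that values did not differ.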
